A study of Mus musculus with 36 samples.

Results

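Transforming growth factor beta (TGF-beta) signalling was followed through 8 genes that encode its ligands, receptors and intracellular mediators: Tgfb1, Tgfb2, Tgfb3, Tgfbr1, Tgfbr2, Smad2, Smad3 and Smad4. The 8 were chosen by name, all were present among the 770 genes of the assay, and all passed the filter that left 683 endogenous genes to be tested. RNA came from 36 pancreatic tumours grown in C57BL/6 mice after cells of the mouse pancreatic cancer line KPfC BMF-A3 were implanted into the pancreas. The RNA was counted on a mouse nCounter cancer immunology panel, in which barcoded probes are hybridised to RNA and counted one by one. Mice received vehicle (6 tumours), a single agent (TP-0903, Gemcitabine or Anti-PD1, 4 tumours each), a pair (TP-0903+Gemcitabine with 5 tumours, TP-0903+anti-PD1 with 4 or Gemcitabine+anti-PD1 with 4) or all 3 agents (TP-0903+Gemcitabine+anti-PD1, the triple-therapy arm, with 5), from day 10 after implantation, and tumours were collected on day 35. TP-0903 blocks the kinase Axl and was dosed orally every day at 25 mg/kg. Gemcitabine, a cytotoxic nucleoside analogue, was dosed at 25 mg/kg on 3 days of each week. The PD1 antibody was clone RMP14-1, dosed at 5 mg/kg on 2 days of each week. All arms shared the same implanted line and wild-type host strain, so the design speaks for a single tumour line.

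TGF-beta ligands are secreted in a latent form and, once released, bind the receptor kinase encoded by Tgfbr2, which recruits and phosphorylates the kinase encoded by Tgfbr1. The activated complex phosphorylates the proteins of Smad2 and Smad3, which join the product of Smad4 and enter the nucleus to regulate transcription. In pancreatic cancer the pathway is known both for restraining epithelial growth and for driving fibroblast activation, matrix deposition and immune suppression, and SMAD4 is a frequently lost tumour suppressor in the human disease. The assay measured transcript levels, and did not measure ligand activation or Smad phosphorylation. In whole tumours, fewer cells of a type and less RNA per cell cannot be told apart.

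Total counts per tumour ran from 115973 to 552876, with a median of 357262. Levels are given as scaled counts, raw counts divided by each lane's geometric mean of 20 housekeeping genes relative to the average lane, and they were not compared between genes because each gene has its own probe. The lanes came from 3 cartridges, of which the first held all Vehicle and TP-0903 tumours and 2 of the Gemcitabine tumours, so 5 arms shared no cartridge with vehicle. A pair of libraries stood apart. TP-0903 replicate 3 had summed liver markers of 192960 scaled counts and summed tumour epithelium markers of 643, against at most 4604 and at least 14520 in the other 34 tumours. Vehicle replicate 3 had summed lung markers of 14591 and endothelium markers of 16923, against at most 55.3 and 1713 in those 34 tumours, and its epithelium markers summed to 4142. TP-0903 replicate 3 held the lowest value of 7 of the 8 genes, and Vehicle replicate 3 held the highest value of Tgfb2 and Tgfbr2. Results are therefore given with these 2 libraries and, where the value moved, without them.

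The promoters of 4 genes are shown, in pairs whose levels were correlated across tumours and whose promoter sequences were both available. A sequence was available for only 5 genes of the set, and not for Tgfb3. Over 34 tumours, without the libraries that stand apart, Tgfb1 with Smad3 had adjusted permutation p under 0.05 in both Pearson's and Spearman's coefficients. Tgfb2 with Tgfbr2 did so in Pearson's only, at r = 0.47, but in both over all 36 tumours. Higher r over the 34 tumours was found for Tgfb3 with Tgfbr2 (0.62) and Tgfbr1 with Smad4 (0.58), which are not shown as pairs. Each sequence holds the 250 bases before a start in the RefSeq annotation of GRCm38.p6, read 5′ to 3′ along the gene's strand. For Tgfb1, Smad3 and Tgfbr2 this is the outermost start of the annotated gene, whereas the Tgfb2 window precedes a start that lies inside the annotated span of the gene. Capitals mark matches, on either strand, to a TATA box core (TATAAA), an E-box (CACGTG), a GC box (GGGCGG, which reads CCGCCC on the other strand) or a Smad box (CAGAC), and no match overlapped another.
Tgfb1, chr7:25686752-25687001, plus strand: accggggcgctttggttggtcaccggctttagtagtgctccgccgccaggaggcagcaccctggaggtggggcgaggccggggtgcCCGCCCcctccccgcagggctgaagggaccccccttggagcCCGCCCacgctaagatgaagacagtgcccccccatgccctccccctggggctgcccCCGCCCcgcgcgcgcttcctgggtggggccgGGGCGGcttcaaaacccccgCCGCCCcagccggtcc
Smad3, chr9:63757995-63758244, minus strand: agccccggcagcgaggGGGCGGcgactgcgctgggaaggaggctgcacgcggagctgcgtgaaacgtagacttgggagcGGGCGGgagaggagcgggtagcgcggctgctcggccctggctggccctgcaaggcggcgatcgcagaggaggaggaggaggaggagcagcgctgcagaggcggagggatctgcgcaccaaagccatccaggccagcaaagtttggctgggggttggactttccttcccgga
Tgfb2, chr1:186705990-186706239, minus strand: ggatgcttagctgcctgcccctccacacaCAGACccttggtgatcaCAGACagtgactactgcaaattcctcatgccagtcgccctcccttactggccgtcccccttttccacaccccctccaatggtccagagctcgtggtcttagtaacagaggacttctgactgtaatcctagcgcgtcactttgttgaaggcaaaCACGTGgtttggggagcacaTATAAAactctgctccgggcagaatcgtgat
Tgfbr2, chr9:116175364-116175613, minus strand: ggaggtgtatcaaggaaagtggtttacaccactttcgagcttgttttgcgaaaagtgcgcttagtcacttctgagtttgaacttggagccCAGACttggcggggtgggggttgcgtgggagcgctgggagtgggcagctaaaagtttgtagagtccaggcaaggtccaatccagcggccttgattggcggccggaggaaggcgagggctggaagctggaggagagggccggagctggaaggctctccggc
The Tgfb1 and Smad3 windows were rich in G and C, at 75.2% and 69.2% against a median of 52.4% over all 32851 promoter windows of the same length, and they held 5 and 2 GC boxes. The Tgfb2 and Tgfbr2 windows lay nearer the median, at 53.6% and 58.4%, and held no GC box but 2 and 1 Smad boxes. The Tgfb2 window alone among the 4 held a TATA box core, beginning at -31 relative to that internal start, and an E-box, beginning at -51. Among all windows a GC box was found in 32.7%, a Smad box in 42.2%, a TATA box core in 12.4% and an E-box in 6.02%. A match describes the letters of a window and does not show that a factor binds there.

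None of the 8 genes changed in any of the 22 comparisons at an adjusted p under 0.05. The comparisons were the 7 treated arms against vehicle, each agent added to each other regimen (9), each agent's effect averaged across the 4 settings of the other agents (3) and the pairwise interactions (3), all from a single edgeR quasi-likelihood fit with Benjamini-Hochberg adjustment over the 683 genes. The smallest adjusted p among the 176 member tests was 0.368 (Tgfb2, triple therapy against vehicle). An unadjusted p under 0.05 was reached in 5 of the 176 tests, or 2.84%, against 8.23% of the tests of all genes. The comparisons with such a member were Gemcitabine against vehicle (9.08% of all genes), the TP-0903+anti-PD1 arm against vehicle (10.7%), triple therapy against vehicle (12.9%), TP-0903 added to Anti-PD1 (4.25%) and the interaction of TP-0903 and gemcitabine (5.12%). The share of all genes called was 4.83% for TP-0903 against vehicle, 0.439% for TP-0903+Gemcitabine, 0.146% for Gemcitabine+anti-PD1, 0.878% for the triple arm and 0.0% for each of the other 3 arms. It was 2.93% for gemcitabine added to TP-0903, 3.07% for the antibody added to TP-0903, 0.146% for the average effect of gemcitabine, 1.46% for the interaction of TP-0903 and the antibody, and 0.0% for every other comparison. Without the 2 libraries that stand apart, again 0 of 176 were called, 9 had an unadjusted p under 0.05 (5.11%, against 9.05% over all genes), and the smallest adjusted p was 0.140. In those tumours 0.586% of all genes were called for TP-0903+Gemcitabine and for Gemcitabine+anti-PD1 against vehicle, 0.146% for gemcitabine added to the antibody, 2.49% for the average effect of gemcitabine and 0.0% elsewhere. The 9 were Smad4 in TP-0903+anti-PD1 against vehicle, with TP-0903 added to the antibody, with gemcitabine added to the antibody and in the interaction of TP-0903 and gemcitabine (11.7%, 7.61%, 9.08% and 7.17% of all genes). The others were Tgfbr2 in TP-0903+anti-PD1 against vehicle and in the average effect of the antibody (3.07%), Tgfb2 with the antibody added to Gemcitabine (3.66%), Smad3 with the antibody added to TP-0903+Gemcitabine (13.2%) and Tgfb3 in the average effect of gemcitabine (14.5%).

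The fitted differences were small. Log2 folds of the members over all comparisons ran from -0.77 to 0.66, and the median of their sizes was 0.14 against 0.24 for all tested genes. All intervals here come from the fit that took no account of cartridge. For the average effects of the 3 agents, each 95% interval of the 24 lay within a 2-fold change in either direction. Their bounds ran from -0.80 to 0.75 on the log2 scale. Against vehicle 50 of 56 intervals lay within 2-fold, for an agent added to another regimen 55 of 72, and for interactions 22 of 24. With the cartridge as a block, the average antibody folds of Tgfb1, Tgfb3 and Tgfbr2 were larger, and those of Tgfb2 and Tgfbr1 changed sign. These folds are given below, without intervals, so the 2-fold bound is not shown for that fit. Of the 25 intervals that reached past a 2-fold change, 11 belonged to Tgfb3, 8 to Tgfb2, 5 to Smad3 and 1 to Smad4. Those of Tgfb2 for Gemcitabine and for triple therapy against vehicle excluded 0, as did that of Smad4 for TP-0903 added to Anti-PD1. None of these passed after adjustment. In the other comparisons a change of that size could not be told from none at this number of tumours.

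**Figure D1:**
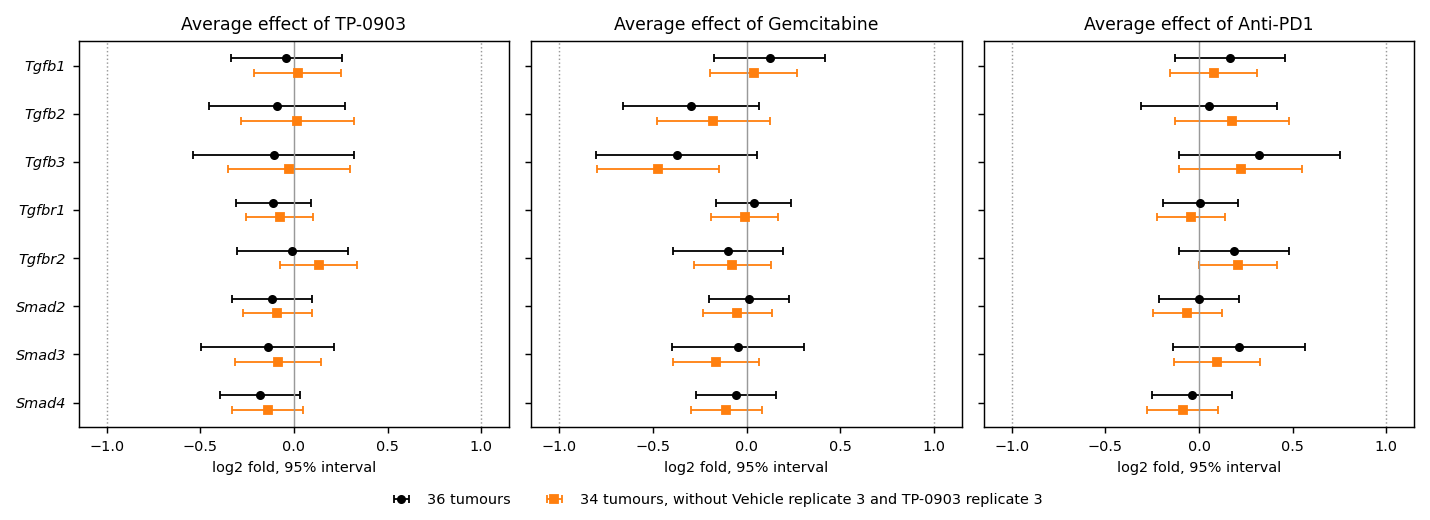
Log2 fold (x axis) of each of the 8 genes (y axis) for the average effect of TP-0903, gemcitabine and anti-PD1, with 95% intervals, over 36 tumours (black circles) and over 34 tumours without Vehicle replicate 3 and TP-0903 replicate 3 (orange squares); dotted lines mark a 2-fold change. In these fits, which took no account of cartridge, every interval lies inside the dotted lines. The estimate farthest from 0 is that of Tgfb3 with gemcitabine over 34 tumours, at -0.47.

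Among the ligands, Tgfb1 encodes the isoform that predominates in most tissues and immune cells. Its arm means ran from 527 ± 250 scaled counts (SD, n = 4) with TP-0903 to 736 ± 285 (n = 4) with Anti-PD1, a ratio of 1.40. Within the Anti-PD1 arm the 4 tumours stood at 599, 791.5, 447 and 1108. The TP-0903 arm stood at 615, 571, 169 and 751.3, and without the 2 libraries its mean was 646 ± 93.9 (n = 3), beside 591 ± 111 (n = 5) in vehicle. The average log2 folds were -0.04 ± 0.14 (SE) with TP-0903, 0.12 ± 0.14 with gemcitabine and 0.16 ± 0.14 with the antibody, with edgeR adjusted p-values of 0.959, 0.798 and 0.866. The last was 0.51 with the cartridge as a block and 0.08 without the 2 libraries (adjusted p = 1.00 and 0.993). The tumours of every arm overlapped those of every arm they were compared with.

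Tgfb2 encodes a ligand isoform best known from development. Vehicle tumours ranged from 39.8 to 174 scaled counts with a median of 56.0, the highest being Vehicle replicate 3, and the next highest stood at 72.2. Gemcitabine tumours stood at 29.4, 44.6, 44.7 and 51.4, and triple-therapy tumours at 37.8, 38.1, 38.0, 57.3 and 55.5. All of these lay below 60.1, the third highest vehicle tumour, and both arms overlapped vehicle. The log2 fold against vehicle was -0.77 ± 0.35 for Gemcitabine (unadjusted p = 0.0341, edgeR adjusted p = 0.515) and -0.68 ± 0.33 for triple therapy (unadjusted p = 0.0456, adjusted p = 0.368). Without the 2 libraries these were -0.31 ± 0.29 and -0.21 ± 0.27, in each case a smaller difference than with the vehicle tumour that carried lung markers. In the TP-0903+anti-PD1 arm Tgfb2 was closely held, at 67.8, 61.6, 67.6 and 62.5. All 5 triple-therapy tumours lay below all 4 of these, yet the fold for gemcitabine added to TP-0903+anti-PD1 was -0.51 ± 0.36 (adjusted p = 0.998).

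Tgfb3, a ligand isoform made by mesenchymal and epithelial cells, had the widest ratio between arm means. These ran from 156 ± 64.6 (n = 5) with TP-0903+Gemcitabine to 282 ± 94.7 (n = 4) with Anti-PD1, a ratio of 1.81. The Anti-PD1 tumours stood at 264, 193, 255 and 416, and the TP-0903+Gemcitabine tumours at 122, 261, 98.3, 127 and 171. The 2 arms overlapped. Gemcitabine tumours stood at 147, 148, 228 and 201, Gemcitabine+anti-PD1 tumours at 136, 202, 313 and 121, and triple-therapy tumours at 152, 201, 181, 202 and 153. TP-0903 tumours were at 230, 226, 19.7 and 289, TP-0903+anti-PD1 tumours at 399, 165, 193 and 296, and vehicle ran from 124 to 288 with a median of 162. The averages with gemcitabine were the lower ones on each background, but single tumours with and without the drug overlapped throughout. The average log2 fold with gemcitabine was -0.37 ± 0.21 (unadjusted p = 0.0869, edgeR adjusted p = 0.426). It was -0.08 on vehicle, -0.30 on TP-0903, -0.55 on the antibody and -0.57 on both. In the 34 tumours, which leave out the TP-0903 tumour at 19.7, these were -0.11, -0.67, -0.55 and -0.56. Without the 2 libraries the average was -0.47 ± 0.16 (unadjusted p = 0.00579, adjusted p = 0.140), and with the cartridge as a block over all tumours it was -0.30. This was the lowest adjusted p of any member in the 34 tumours, and it did not pass. For the average effect of gemcitabine 2.49% of all genes passed in those tumours. The average log2 fold of Tgfb3 with the antibody was 0.32 ± 0.21 (adjusted p = 0.866), or 0.58 with the cartridge as a block (adjusted p = 1.00).

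**Figure D2:**
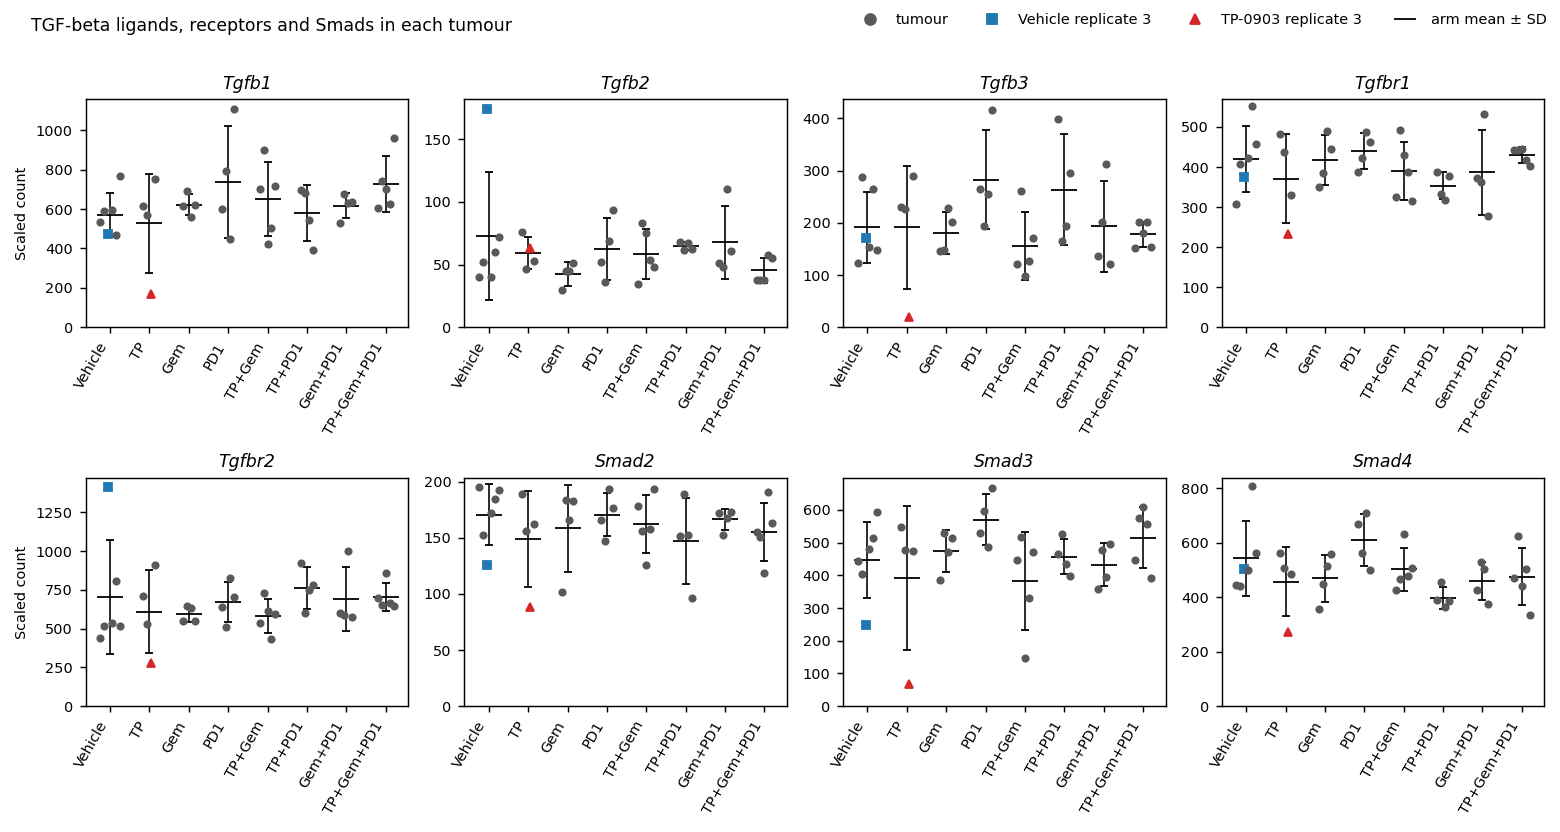
Scaled counts (y axis, from 0) of the 8 genes in each of the 36 tumours by treatment arm (x axis; TP is TP-0903, Gem is gemcitabine, PD1 is anti-PD1), with bars at the arm mean ± SD. The red triangle (TP-0903 replicate 3) is the lowest tumour for 7 genes, the blue square (Vehicle replicate 3) the highest for Tgfb2 and Tgfbr2, and the other tumours of the arms largely overlap.

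Of the receptors, Tgfbr1 encodes the signalling kinase that phosphorylates the Smads. It was steady across tumours, with a biological coefficient of variation of 0.230, lower than that of all but 11.7% of tested genes, where the median gene had 0.362. Its arm means ran from 354 ± 33.7 (n = 4) with TP-0903+anti-PD1 to 440 ± 43.8 (n = 4) with Anti-PD1. The 4 TP-0903+anti-PD1 tumours stood at 387, 333, 318 and 378. The 5 triple-therapy tumours stood at 442, 443, 445, 418 and 402, all above them. Together with Tgfb2, which ran the opposite way, Tgfbr1 was thus 1 of 2 members whose tumours did not overlap between these arms, where 1.32% of all tested genes did not overlap. The log2 fold for gemcitabine added to TP-0903+anti-PD1 was 0.28 ± 0.20 (edgeR adjusted p = 0.998), and its average effects were -0.11, 0.04 and 0.01 with TP-0903, gemcitabine and the antibody, each ± 0.10.

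Tgfbr2 encodes the receptor that binds ligand first. Its arm means ran from 582 ± 108 (n = 5) with TP-0903+Gemcitabine to 763 ± 133 (n = 4) with TP-0903+anti-PD1. Vehicle tumours ran from 438 to 1413 with a median of 528, and the highest was again Vehicle replicate 3, whose endothelium and lung markers were high. Without the 2 libraries vehicle had the lowest mean of the 8 arms, 564 ± 143 (n = 5). The TP-0903+anti-PD1 tumours stood at 924, 599, 749.8 and 779.3, and overlapped vehicle. Their log2 fold against vehicle was 0.11 ± 0.28 over all tumours (edgeR adjusted p = 0.937). It was 0.44 ± 0.19 without the 2 libraries (unadjusted p = 0.0326, edgeR adjusted p = 0.360). The average effect of the antibody was 0.19 ± 0.14, or 0.21 ± 0.10 without the 2 libraries (adjusted p = 0.866 and 0.993), and 0.46 with the cartridge as a block (1.00).

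Smad2, a receptor-activated mediator, had the smallest ratio between arm means of the 8. These ran from 147 ± 38.2 (n = 4) with TP-0903+anti-PD1 to 171 ± 19.2 (n = 4) with Anti-PD1, a ratio of 1.16, and its coefficient of variation was 0.229. The average log2 folds were -0.12, 0.01 and -0.0019 with TP-0903, gemcitabine and the antibody, each ± 0.10. The whole set of 36 tumours lay between 88.4 and 195. Smad3, the mediator that binds DNA directly alongside the product of Smad4, had a wider spread, with a coefficient of variation of 0.364. Its arm means ran from 383 ± 149 (n = 5) with TP-0903+Gemcitabine to 570 ± 78.3 (n = 4) with Anti-PD1. The TP-0903+Gemcitabine tumours stood at 447, 518, 147, 329 and 472, so replicate 3 of that arm was low, and the Anti-PD1 tumours at 530, 597, 487 and 666. In that low library the housekeeping genes stood at 0.141 of the assay's positive controls in geometric mean, the lowest ratio of the 36 tumours. Adding the antibody to TP-0903+Gemcitabine gave a log2 fold of 0.43 ± 0.33 (edgeR adjusted p = 0.790), or 0.43 ± 0.21 without the 2 libraries (unadjusted p = 0.0470, adjusted p = 0.367).

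Smad4 encodes the common partner of the receptor-activated Smads. It gave 3 of the 5 tests with an unadjusted p under 0.05. The 4 Anti-PD1 tumours stood at 669, 564, 711 and 501, and the 4 TP-0903+anti-PD1 tumours at 390, 455, 363 and 385. Every tumour given both agents lay below every tumour given the antibody alone, which held for 4.1% of all tested genes in one direction or the other. The means were 398 ± 39.6 (n = 4) against 611 ± 95.8 (n = 4). The log2 fold for TP-0903 added to the antibody was -0.62 ± 0.22 (unadjusted p = 0.00854, edgeR adjusted p = 0.583, 4 of 4 tumours lower). It was -0.62 without the 2 libraries (adjusted p = 0.234) and -0.65 with the cartridge as a block (adjusted p = 1.00). The 2 arms shared a cartridge for only 1 of the TP-0903+anti-PD1 tumours, so a comparison within a cartridge with 2 tumours of each arm was not possible. Against vehicle the TP-0903+anti-PD1 arm had a log2 fold of -0.45 ± 0.20 (unadjusted p = 0.0341, edgeR adjusted p = 0.437), or -0.89 with the cartridge as a block (0.938). No cartridge held both of these arms. The log2 value of the interaction of TP-0903 and gemcitabine was 0.51 ± 0.21 (unadjusted p = 0.0219, edgeR adjusted p = 0.852). These comparisons share tumours and are not independent of each other. Neutrophil markers were higher in the TP-0903+anti-PD1 arm, summing to 1845 to 22783 scaled counts over 7 genes led by S100a8 and Mpo, against 531 to 796.2 in the Anti-PD1 arm. Tumour epithelium markers summed to 14520 to 50724 in the TP-0903+anti-PD1 arm (median 28775) and to 17280 to 103117 in the Anti-PD1 arm (median 58218), and overlapped. The part of either list of markers in the result was not tested.

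The order of the arms is a description and was not resolved for any of the 8 genes, as no comparison of arms passed. In no gene did the gap between neighbouring arm means exceed the larger of the 2 SDs (0 of 7 neighbours each). With 8 means in a narrow range such gaps are small in any case, so this count does not test the order. Anti-PD1 had the highest mean of the 8 arms for 6 genes (5 without the 2 libraries), and TP-0903+anti-PD1 and TP-0903+Gemcitabine the lowest for 3 genes each (4 and 2 without the 2 libraries). In the remaining 14 of the 16 comparisons of 2 arms no member was without overlap, where 0.146% to 3.51% of all tested genes were.

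Some of the 8 genes rose and fell together between tumours. Over 36 tumours, 14 of the 28 pairs had a Pearson correlation of log2 levels with an adjusted permutation p under 0.05, all positive. Without the 2 libraries 5 of 28 did. Pearson's and Spearman's coefficients both passed for 3 pairs over 34 tumours. Tgfb3 with the receptor gene Tgfbr2 had r = 0.62 and rho = 0.59 (adjusted permutation p = 0.00196 and 0.00742), and r was 0.63, 0.72 and 0.71 within the 3 cartridges. Tgfbr1 with Smad4 had r = 0.58 and rho = 0.57 (adjusted permutation p = 0.00420 and 0.00742), with 0.80, 0.34 and 0.51 within cartridges. Tgfb1 with Smad3 had r = 0.53 and rho = 0.51 (adjusted permutation p = 0.0142 and 0.0231), with 0.31, 0.69 and 0.32. Leaving out the 2 tumours farthest from the median left r at 0.59, 0.55 and 0.49 for these pairs. Tgfb2 with Tgfbr2 passed in r only, at 0.47 (adjusted permutation p = 0.0349) with rho = 0.45 (0.0511), and its r was 0.36 without the 2 farthest tumours. Neither the pair of receptor genes nor the pair of receptor-activated Smads passed, Tgfbr1 with Tgfbr2 at r = 0.35 and Smad2 with Smad3 at r = 0.36 (adjusted permutation p = 0.127 for both).

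**Figure D3:**
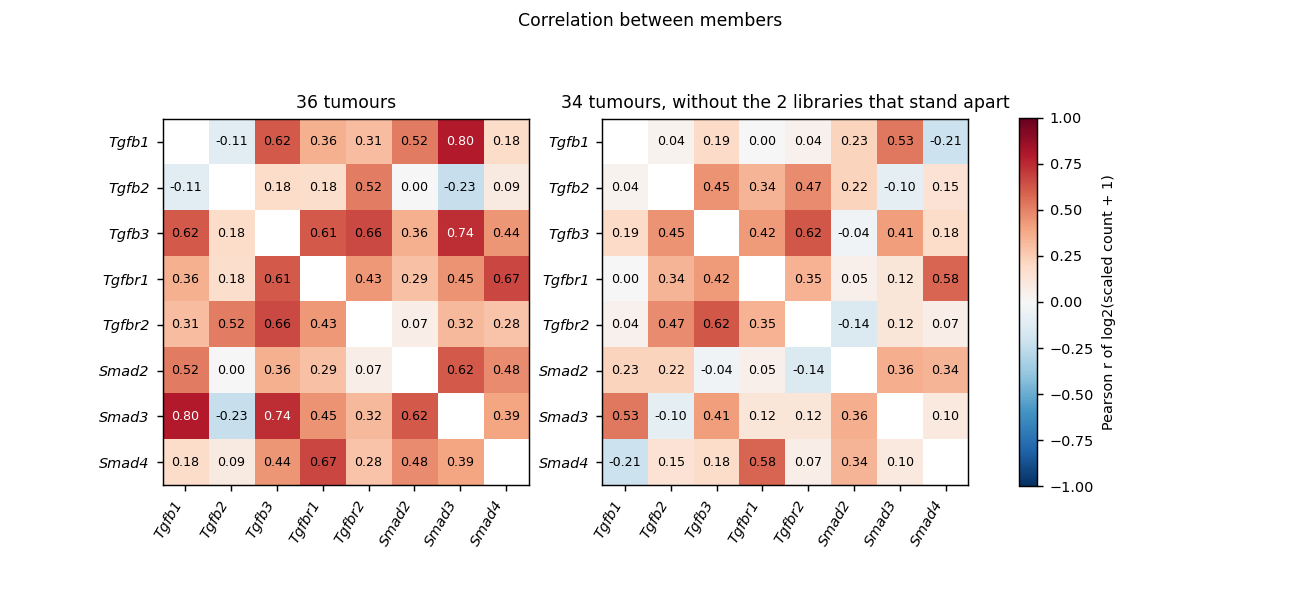
Pearson correlation (colour and number, from -1 to 1) of log2(scaled count + 1) between the 8 genes over 36 tumours (left) and over 34 tumours without Vehicle replicate 3 and TP-0903 replicate 3 (right). Most squares pale from left to right, as for Tgfb1 with Tgfb3, which went from 0.62 to 0.19, while Tgfb3 with Tgfbr2 went from 0.66 to 0.62.

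The 8 genes were set against marker genes of cell types over the same 34 tumours. In both coefficients, Tgfb2, Tgfb3 and Tgfbr2 were correlated with fibroblast and matrix markers. Tgfb2 and Tgfbr2 were also correlated in both with macrophage markers, and Tgfb3 and Tgfbr2 with endothelium markers. No list passed in both coefficients for Tgfb1, Tgfbr1, Smad2 or Smad3, of 11 lists each. Of 88 relations, 8 passed in both r and rho after adjustment over the 88. With the summed level of 6 fibroblast and matrix genes, led by the collagen gene Col3a1 and the fibronectin gene Fn1, r was 0.77 for Tgfbr2, 0.68 for Tgfb2 and 0.60 for Tgfb3 (adjusted permutation p = 0.000293, 0.000293 and 0.00201). The first 2 came from the smallest p the permutations could give, 1e-05. The corresponding rho values were 0.74, 0.65 and 0.52 (adjusted permutation p = 0.000440, 0.00147 and 0.0244). Within the 3 cartridges r lay between 0.77 and 0.81 for Tgfbr2, between 0.64 and 0.73 for Tgfb2 and between 0.55 and 0.69 for Tgfb3. With 8 macrophage and monocyte genes, led by Cd14 and Csf1r, r was 0.74 for Tgfbr2 and 0.66 for Tgfb2, with rho of 0.75 and 0.64. With 8 endothelium genes, led by Pecam1 and Eng, r was 0.68 for Tgfbr2 and 0.60 for Tgfb3, with rho of 0.61 and 0.52. Tgfb2 with endothelium markers and Tgfb3 with macrophage markers passed in r only, at 0.49 and 0.47 (adjusted permutation p = 0.0289 and 0.0398). Their rho values were 0.36 and 0.42 (adjusted permutation p = 0.169 and 0.0963). Smad4 ran against 7 neutrophil genes, with r = -0.54 and rho = -0.52 (adjusted permutation p = 0.0105 and 0.0244). For this relation r was -0.34 on deviations from arm means and -0.41 without the 2 farthest tumours. It was uneven within the 3 cartridges, at -0.22, -0.35 and -0.78. Among the 7 neutrophil genes S100a8 averaged 1931 scaled counts and the others 18.9 to 143, so their sum was mostly S100a8. The other 7 relations that passed in both coefficients kept r between 0.55 and 0.76 on deviations from arm means. Smad4 with 5 tumour epithelium genes, led by Dmbt1 and Msln, passed in r only, at 0.54 (adjusted permutation p = 0.0105) with rho = 0.47 (0.0582), and r was 0.59 on deviations from arm means. Among the 5, Dmbt1 averaged 28316 scaled counts and the others 2162 to 4033, so their sum was mostly Dmbt1. All of these relations shared their lanes and scaling. These relations were computed after the values had been seen.

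**Figure D4:**
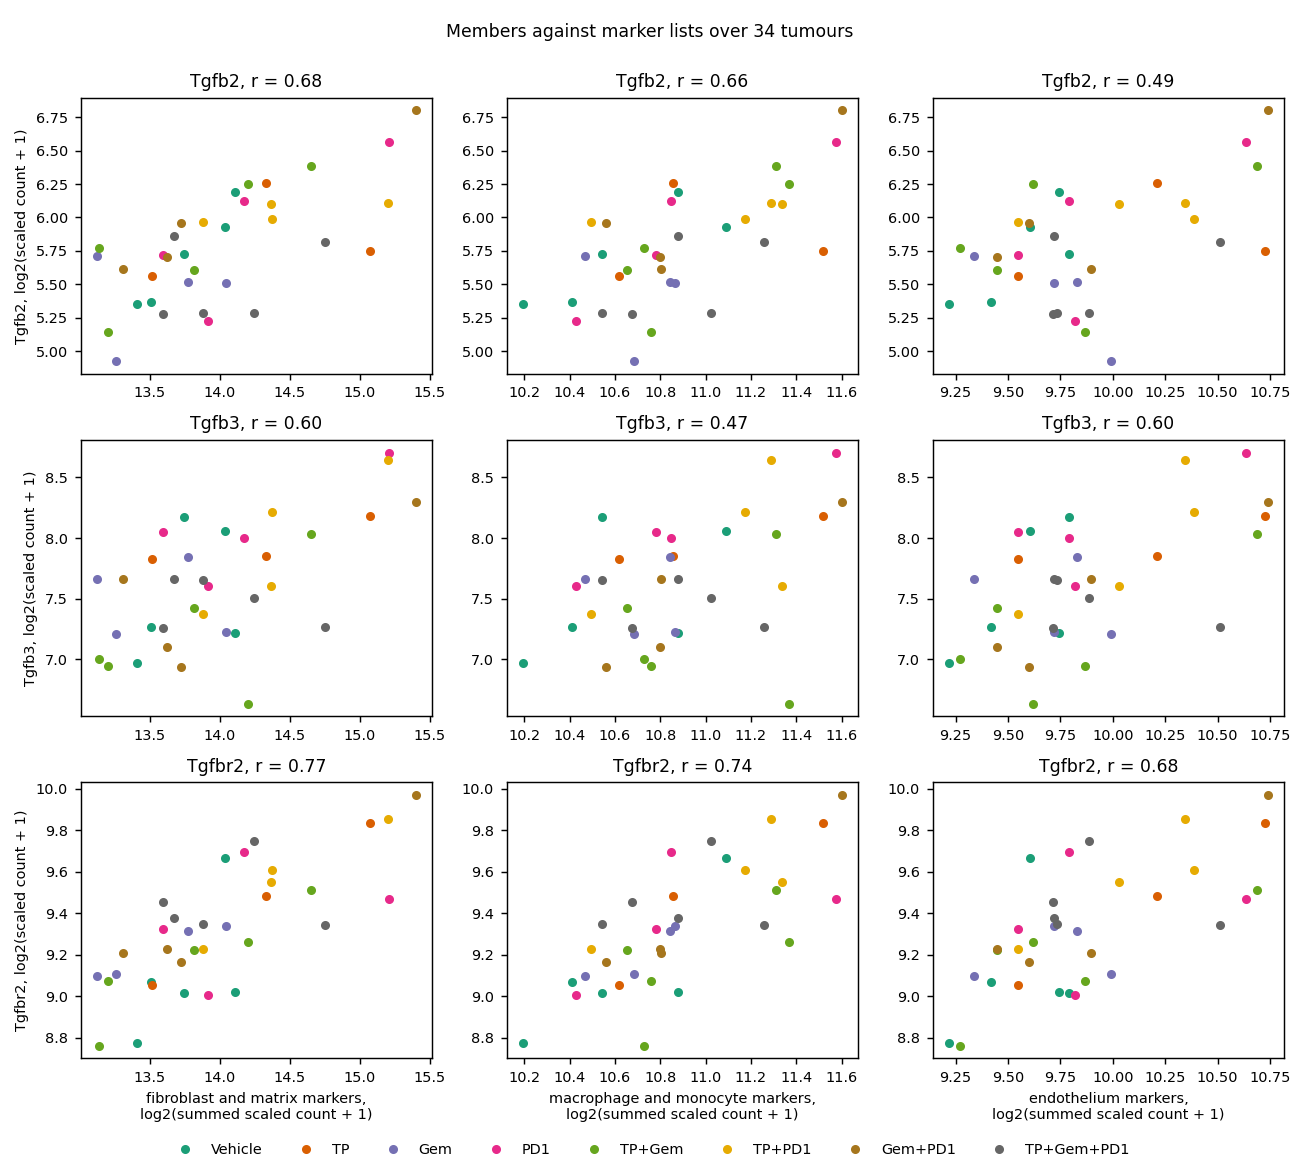
Tgfb2, Tgfb3 and Tgfbr2 (rows; y axis, log2(scaled count + 1)) against the summed level of fibroblast and matrix, macrophage and monocyte, and endothelium markers (columns; x axis, log2(summed scaled count + 1)) in 34 tumours coloured by arm. All panels slope upward, from r = 0.47 for Tgfb3 with macrophage markers to 0.77 for Tgfbr2 with fibroblast and matrix markers, and tumours of each arm are spread along the slope.

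For each member, the 3 tested genes outside the set with the highest Spearman correlation over the 34 tumours were taken as most like it. Tgfb1 was closest to Fn1 (rho = 0.74), which encodes fibronectin and is also in the fibroblast and matrix list, then to the hypoxia factor gene Hif1a (0.67) and the transcription factor gene Gata3 (0.61). Tgfb2 was closest to Nfatc4 (0.77), Hspb2 (0.74) and the flagellin receptor gene Tlr5 (0.70). Several of these genes had low counts. Gata3 and Tlr5 averaged 20.2 and 17.1 scaled counts, near the lane backgrounds of 8.21 to 26.3 raw counts. Nfatc4, Hspb2 and Tgfb2 averaged 46.4, 44.4 and 59.6. Tgfb3 was closest to the secretory-pathway transcription factor gene Xbp1 (0.80), the endocytic receptor gene Lrp1 (0.79) and the class I loading gene Tapbp (0.79). Those genes were measured on different probes, so only their patterns are compared. Tgfbr2 was closest to the scavenger receptor gene Colec12 (0.81), the lipid exporter gene Abca1 (0.79) and the integrin gene Itgam (0.77), the last of which is in the macrophage list above. The genes most like Tgfbr1 included the adhesion gene Ncam1 (0.60) and Traf6 (0.53). Among the Smads the leading genes were Ythdf2 for Smad2 (0.60), the growth factor receptor gene Igf1r for Smad3 (0.62) and the growth factor gene Pdgfc for Smad4 (0.75). Of the 24 genes so chosen, 11 were also chosen over all 36 tumours.

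No other gene of the pathway passed either. Of 77 listed regulators, co-receptors and targets, 27 were on the panel and 26 were tested, and 0 of their 572 tests over the 22 comparisons passed. Of the tests of all genes 0.632% passed. An unadjusted p under 0.05 occurred in 24, or 4.20%, against 8.23% for all genes, and the 2 smallest adjusted p-values both belonged to Mmp9, which encodes a matrix protease able to release latent ligand. Its log2 fold against vehicle was 1.69 ± 0.44 with triple therapy (edgeR adjusted p = 0.0520) and 1.62 ± 0.46 with TP-0903+anti-PD1 (0.0889). Without the 2 libraries these were 1.62 and 1.55 (edgeR adjusted p = 0.177 and 0.170). With the cartridge as a block these were 2.96 and 2.81 (adjusted p = 0.999 and 0.733). Summed neutrophil markers ran from 263 to 1676 scaled counts in vehicle, from 270.0 to 7641 with triple therapy, overlapping vehicle, and from 1845 to 22783 with TP-0903+anti-PD1, wholly above vehicle, and their part in the result was not tested. The 5 genes of ligand activation were Thbs1, Itgb1, Itgb3, Nrp1 and Mmp9. The co-receptor Eng stood alone in its list, 8 genes were Smad partners or kinases, and 12 were targets such as Col1a1, Fn1, Vim and Snai1. With TP-0903 12 of the 26 had a positive average fold (median -0.02, against 0.03 for all genes), with gemcitabine 7 (median -0.12, against -0.03) and with the antibody 16 (median 0.07, against -0.04). The average log2 fold of Mmp9 was 0.75 ± 0.25 with the antibody (edgeR adjusted p = 0.394) and 0.69 ± 0.25 with TP-0903 (0.317). The coactivator genes Crebbp and Ep300 had -0.30 ± 0.13 and -0.24 ± 0.12 with TP-0903 (adjusted p = 0.357 and 0.472). With gemcitabine, the integrin gene Itgae, a known TGF-beta target in T cells, had -0.33 ± 0.14 (0.237), the neuropilin gene Nrp1 -0.38 ± 0.19 (0.361) and Crebbp -0.27 ± 0.13 (0.358). With the antibody, the matrix genes Fn1 and Thbs1, the latter encoding an activator of latent ligand, had 0.37 ± 0.18 (0.841) and 0.46 ± 0.25 (0.866).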

How the data were processed

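The deposited table holds raw nCounter counts per gene and tumour, per the file headers, and all 27720 values equal the counts of the deposited lane report. The authors' imaging and cartridge fields of that report are other lane attributes and were read from it too. In that report 7 lane identifiers, all of Vehicle, TP-0903 or Gemcitabine tumours, carry the suffix -R. No label or header explains it, and these lanes were used like the others. The series text describes normalization to controls and housekeeping genes, which the deposited counts do not carry. Counts were divided by each lane's geometric mean of the 20 housekeeping genes over its mean across lanes. Genes above their lane's background (mean plus 2 SD of 8 negative controls, 8.21 to 26.3 counts) in at least 4 lanes were kept, 683 of 750. All 36 tumours entered 1 edgeR 4.0.16 quasi-likelihood fit of the 8 arms in R 4.3.3, with Benjamini-Hochberg adjustment over the tested genes at 0.05. limma 3.58.1 and DESeq2 1.42.0 served as alternatives, as did other scalings, filters, cartridge blocks and left-out tumours. The fit was tested on simulated data. Correlations used log2(scaled count + 1) and 100000 permutations, two-sided. No column of per-sample values was left out (0).

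The labels do not say whether tumours of an arm came from separate experiments, so p-values measure the spread between these tumours. Members and gene lists were chosen with earlier results of these data known. Named are the 8 members, pathway genes that passed or else the 3 with the smallest unadjusted p in each average effect, the genes most like each member (the 3 highest, of which 1 for Tgfbr1 is not reported here and the first alone is given for each Smad), and the 2 most counted genes of a marker list. Mmp9 in single arms, members of lists and the relations to marker lists were added after seeing the data. Protein sequences were not used here.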

Additional observations from a re-analysis of the deposited data

Results flagged for a closer look

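In 5 of 64 sets of 1 gene in 1 arm, a single tumour lay far from the others by Dixon's criterion, where chance flags about 1 in 20 sets (3.2 here). TP-0903 replicate 3 stood at 19.7 scaled counts for the ligand gene Tgfb3, where the other tumours of its arm ran from 226 to 289, and at 66.8 for Smad3, where they ran from 475 to 548. This tumour carried the high liver and low epithelium markers. The receptor gene Tgfbr2 stood at 1001 in Gemcitabine+anti-PD1 replicate 3, against 573 to 600 in the rest of that arm. It stood at 859 in replicate 3 of the triple-therapy arm, against 649 to 700. Smad2 stood at 101.7 in Gemcitabine replicate 1, against 166 to 184.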

How the results depend on the processing

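Of 1033 counts of called members under other settings, 1032 were 0. The exception was TP-0903+Gemcitabine against vehicle scaled to positive controls alone, with 2 called, Tgfb2 (-0.97, edgeR adjusted p = 0.0363) and Tgfbr1 (-0.82, adjusted p = 0.0444). There 140 genes were called and the median of all genes was -0.59. Correlated pairs (14) numbered 28 with that scaling, 5 without the 2 libraries that stand apart, 3 without the 2 tumours farthest from the median, and 6, 0 and 0 within the 3 cartridges. Of 1435 refitted folds 86 changed sign, over 13 of the 31 folds followed, and the smallest adjusted p outside that scaling was 0.140; the cause was not tested. For TP-0903, the cartridge block gave 0.045 for Tgfb1 and 0.064 for Tgfbr2. Leaving out both libraries gave 0.021 for Tgfb1, 0.019 for Tgfb2 and 0.13 for Tgfbr2, and doing both gave 0.11 for Tgfb1, 0.065 for Tgfb3 and 0.20 for Tgfbr2. For gemcitabine, the block gave -0.040 for Tgfbr1, 0.031 for Tgfbr2 and -0.082 for Smad2. Leaving out both libraries gave -0.010 for Tgfbr1 and -0.049 for Smad2, and doing both gave -0.089 for Tgfbr1, 0.053 for Tgfbr2 and -0.15 for Smad2. Positive controls gave -0.050 for Tgfb1, -0.15 for Tgfbr1 and -0.15 for Smad2, DESeq2 size factors -0.0089 for Smad2, and limma 0.024 for Smad3. For the antibody, the block gave -0.12 for Tgfb2 and -0.090 for Tgfbr1. Leaving out both libraries gave -0.044 for Tgfbr1, doing both -0.14, TMM -0.0036 and positive controls -0.0017, and limma gave 0.013 for Smad2. Leaving out 1 tumour at a time moved the TP-0903 folds from -0.096 to 0.033 (Tgfb1), from -0.14 to 0.026 (Tgfb2) and from -0.073 to 0.073 (Tgfbr2). It moved the gemcitabine folds from -0.0098 to 0.077 (Tgfbr1), from -0.030 to 0.055 (Smad2) and from -0.13 to 0.0067 (Smad3). It moved the antibody folds from -0.032 to 0.17 (Tgfb2), from -0.043 to 0.044 (Tgfbr1), from -0.046 to 0.037 (Smad2) and from -0.082 to 0.00034 (Smad4). Arms of 4 to 6 tumours and cartridges that hold few arms together limit what single comparisons can show. No paired analysis was possible because the labels number no replicates across arms.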
